A study of Mus musculus with 5 samples.

Results

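Pericentral Wnt-driven hepatocyte genes were measured in the livers of 5 mice. The group consists of 10 genes chosen by name: Glul, Oat, Slc1a2, Slc1a4, Slc13a3, Gulo, Rhbg, Lgr5, Axin2 and Tbx3. Each was read from probe sets that the platform annotation gives to that gene alone, and where a gene had several, the probe set with the highest mean stood for it. All 10 were found, of 19938 genes that had such a probe set. The mice were wild-type C57BL/6N males aged 5 to 6 months, kept under specific pathogen-free conditions. All had been injected with streptozotocin, which destroys the insulin-producing beta cells, at a dose of 65 mg/kg on each of 5 successive days, at an age of 10 to 16 weeks. All then ate chow with bezafibrate, a fibrate drug that activates peroxisome proliferator-activated receptors, for 8 weeks, starting 2 weeks after the injections. The labels name bezafibrate contents of 0.25% and 0.5% by weight without saying which a mouse received. Untreated livers and livers given only 1 of the agents were not analysed here, so the values describe how doubly treated livers differ from each other and contain no effect of either agent.

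Blood crosses the liver lobule from the portal tracts to the central vein, and hepatocytes along that path carry out different work. Endothelial cells of the central vein release Wnt ligands and R-spondin, which stabilise beta-catenin in the neighbouring hepatocytes and, through factors of the TCF and LEF family, switch on a pericentral programme. In the innermost layer this programme serves to capture ammonia that escaped the periportal urea cycle and to fix it as glutamine. The RNA here came from whole liver tissue, so the position of a transcript in the lobule was not measured. In bulk tissue, fewer cells of a type and less RNA per cell cannot be told apart.

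The promoter windows of 4 of these genes are shown because they include the classic Wnt-driven pair Glul and Axin2 and the paralogous transporter genes Slc1a2 and Slc1a4, whose levels were ordered differently over the mice. RefSeq's table for GRCm38.p6 held a window for 6 of the 10 genes (Glul, Oat, Slc1a2, Slc1a4, Slc13a3 and Axin2). Each line gives the 250 bases before the start of transcription, 5′ to 3′ on the gene's strand, and capitals mark a match to a TCF and LEF motif. The starts used for Slc1a2 and Axin2 lie inside the span of the gene and not at its outer end.
Glul, chr1:153899679-153899928, plus strand: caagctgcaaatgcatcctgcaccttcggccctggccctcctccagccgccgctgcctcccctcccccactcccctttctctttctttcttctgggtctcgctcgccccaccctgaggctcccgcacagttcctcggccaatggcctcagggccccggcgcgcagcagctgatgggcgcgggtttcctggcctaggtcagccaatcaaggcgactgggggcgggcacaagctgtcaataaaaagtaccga
Axin2, chr11:108920099-108920348, plus strand: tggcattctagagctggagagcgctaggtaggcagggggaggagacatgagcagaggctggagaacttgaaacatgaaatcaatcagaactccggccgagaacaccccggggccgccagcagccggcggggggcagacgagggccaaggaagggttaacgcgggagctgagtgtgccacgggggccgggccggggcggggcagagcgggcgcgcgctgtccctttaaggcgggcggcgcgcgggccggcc
Slc1a2, chr2:102706188-102706437, plus strand: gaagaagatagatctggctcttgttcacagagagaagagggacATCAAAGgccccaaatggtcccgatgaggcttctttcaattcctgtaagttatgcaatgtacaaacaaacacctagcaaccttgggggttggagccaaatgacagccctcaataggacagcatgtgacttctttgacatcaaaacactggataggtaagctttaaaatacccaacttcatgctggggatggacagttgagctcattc
Slc1a4, chr11:20332714-20332963, minus strand: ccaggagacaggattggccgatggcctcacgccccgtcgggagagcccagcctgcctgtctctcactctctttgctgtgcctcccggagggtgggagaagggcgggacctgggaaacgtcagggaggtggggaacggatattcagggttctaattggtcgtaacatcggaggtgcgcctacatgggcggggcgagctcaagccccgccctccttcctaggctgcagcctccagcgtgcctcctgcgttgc

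The motifs searched were CTTTGAT and CTTTGAA, on both strands. They share their first 6 letters and differ in the last. Of the 6 windows, 1 held a match, that of Slc1a2, which reads ATCAAAG from base 207 to base 201 before the start. This is the first motif on the opposite strand. Among 32851 windows of the same length, 3.21% held CTTTGAT, 4.46% held CTTTGAA and 7.48% held either. The Slc1a2 window also had the fewest CG pairs of the 6, 1 against 14 to 24 in the others, where the median over all windows was 6. Its share of G and C was 44.8%, against 60.0% to 69.2% in the others and a median of 52.4% over all windows. A match is a run of letters, and these arrays say nothing about binding there.

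RNA was read on 1 Affymetrix whole-transcript array per mouse, and values are on the log2 scale, so 1 unit between livers stands for a doubling of signal, that is 2-fold. The medians of the arrays lay between 6.22 and 6.31. Between any pair of arrays, Pearson's r over the probe sets (which are not independent) was 0.971 to 0.993, and mouse 4 had the lowest mean r with the others (0.978, against 0.985 to 0.988). Mouse 4 also had the brightest background: 76.0% of the 1212 probe sets for odorant and pheromone receptors, used here as genes silent in liver, were highest there. The 95th percentile of these probe sets served as a brightness floor and lay between 5.58 and 6.07 on the arrays. All 10 pericentral genes exceeded the floor in all 5 livers, as did all 7 measured hepatocyte markers, among them Alb (albumin) with a mean level of 13.64 ± 0.05 (SD, n = 5). With 1 array per mouse, technical error cannot be separated from differences between mice. A level is compared only with that of the same gene in another liver, since probes differ in brightness.

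The genes of ammonia capture and glutamine synthesis had SDs between 0.14 and 0.26 on the log2 scale. Glul encodes glutamine synthetase, which joins ammonia to glutamate and is the standard marker of the hepatocytes that ring the central vein. Its level (probe set 10374453) was 12.11 in mouse 1, 11.94 in mouse 2, 12.05 in mouse 3, 11.97 in mouse 4 and 11.76 in mouse 5. Mouse 5 was lowest, and the other livers lay within 11.94 to 12.11. The mean was 11.97 ± 0.14 (SD, n = 5) with a 1.28-fold span, and without mouse 5 the SD was 0.08. A second probe set of the gene (10350753) read 11.71, 11.56, 11.68, 11.53 and 11.11 in mice 1 to 5, with an SD of 0.24 and a 1.51-fold span. Mouse 5 was again lowest and mouse 1 highest. The second probe set lies among probe set numbers of chromosome 1, where Glul lies, with all 10 nearest neighbours from that chromosome. The brighter probe set lies between those of C1d and Spred2, with all 10 nearest neighbours from chromosome 11, so whether it reads Glul alone was not tested.

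Oat encodes ornithine aminotransferase, which turns ornithine into a precursor of glutamate and so feeds glutamine synthesis. Probe set 10568568 read 12.24 in mouse 1, 12.46 in mouse 2, 11.77 in mouse 3, 12.29 in mouse 4 and 12.27 in mouse 5. Mouse 3 lay apart at the low end, 1.39-fold below the next liver. The mean was 12.21 ± 0.26 (SD, n = 5), the span 1.61-fold, and the SD without mouse 3 was 0.10. Rhbg encodes a membrane channel for ammonia of the Rhesus family. On probe set 10499329 the level was 9.53, 9.56, 9.11, 9.26 and 9.58 in mice 1 to 5. Mouse 3 was lowest here too, followed by mouse 4, and the other livers lay within 9.53 to 9.58. The mean was 9.41 ± 0.21 (SD, n = 5) with a 1.38-fold span.

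Of the transporter genes, Slc1a2 and Slc1a4 belong to the same family but their highest and lowest livers were exchanged. Slc1a2 encodes a glutamate transporter, known from glia and from pericentral hepatocytes. Its level (probe set 10474141) was 8.99 in mouse 1, 8.73 in mouse 2, 9.02 in mouse 3, 8.47 in mouse 4 and 8.42 in mouse 5. Mice 1 and 3 were high and mice 4 and 5 low, and the span was 1.51-fold around a mean of 8.73 ± 0.28 (SD, n = 5). Slc1a4 encodes a carrier of alanine, serine and cysteine. Levels of Slc1a4 (probe set 10384539) were 7.71 in mouse 1, 7.78 in mouse 2, 6.98 in mouse 3, 7.13 in mouse 4 and 8.13 in mouse 5. Mouse 3 was lowest and mouse 5 highest, the reverse of Slc1a2. With a mean of 7.55 ± 0.48 (SD, n = 5) and a 2.22-fold span, Slc1a4 had the widest spread of the 10 genes, and its SD was 0.40 to 0.54 when any single mouse was left out.

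Slc13a3 encodes a sodium-coupled carrier of dicarboxylates such as succinate. Probe set 10489705 gave a level of 8.22 in mouse 1, 7.98 in mouse 2, 7.81 in mouse 3, 7.86 in mouse 4 and 8.82 in mouse 5. Mouse 5 stood 1.52-fold above the next liver and the other livers lay close together. The mean was 8.14 ± 0.41 (SD, n = 5), the span 2.02-fold, and the SD without mouse 5 was 0.18. Gulo encodes L-gulonolactone oxidase, the last enzyme of vitamin C synthesis. Levels on probe set 10420899 were 11.15, 10.57, 11.03, 10.32 and 10.78 in mice 1 to 5. Mice 1 and 3 were highest and mouse 4 lowest, with a mean of 10.77 ± 0.34 (SD, n = 5) and a 1.78-fold span.

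The genes that read, limit or answer the Wnt signal itself had SDs between 0.11 and 0.23. Lgr5 encodes a receptor for R-spondins that strengthens Wnt signalling and is itself a target of it. Its level (probe set 10372503) was 7.57 in mouse 1, 7.44 in mouse 2, 7.82 in mouse 3, 7.30 in mouse 4 and 7.26 in mouse 5. Mouse 3 was highest. The mean was 7.48 ± 0.23 (SD, n = 5), the span 1.47-fold and the SD without mouse 3 0.14. Axin2 encodes a scaffold of the complex that degrades beta-catenin and is a common feedback target of the pathway. Axin2 (probe set 10382228) measured 6.97, 7.00, 7.08, 6.84 and 6.80 in mice 1 to 5, so that the mean was 6.94 ± 0.11 (SD, n = 5). The span was 1.21-fold and the SD was the smallest of the 10. Tbx3 encodes a T-box transcription factor. Tbx3 (probe set 10525016) measured 8.94, 8.95, 8.64, 8.66 and 8.58 in mice 1 to 5, where mice 1 and 2 lay above the others. Its mean was 8.75 ± 0.18 (SD, n = 5) and its span 1.30-fold.

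**Figure D1:**
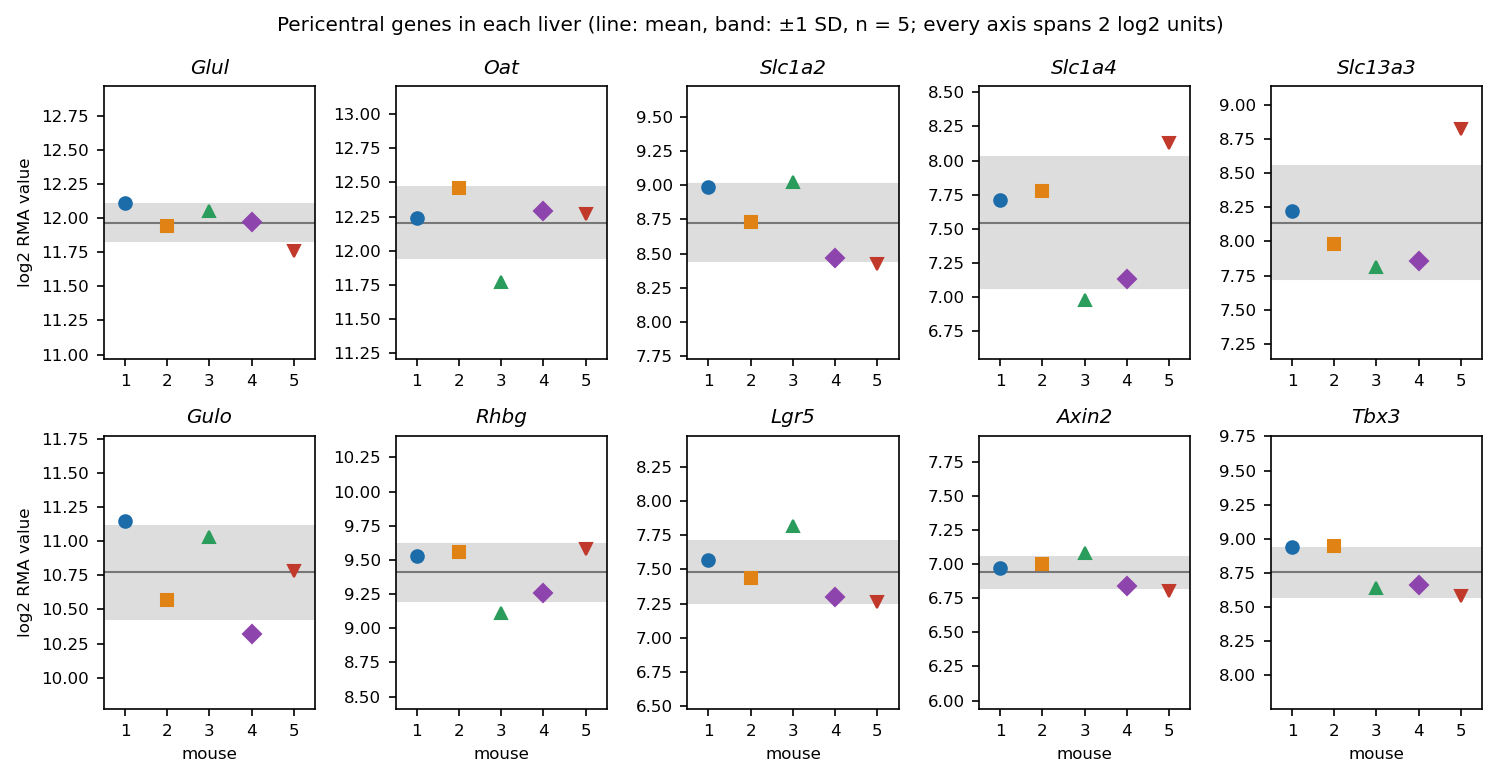
Level of each of the 10 genes on the log2 RMA scale (vertical axis) in mice 1 to 5 (horizontal axis). Each symbol is 1 array, the line is the mean and the band 1 SD to either side, and every panel covers 2 log2 units, so that the wide spread of Slc1a4 (SD 0.48) and the narrow one of Axin2 (SD 0.11) can be compared by eye.

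The 10 genes did not follow a single order over the mice. Glul, Slc1a2, Lgr5, Axin2 and Tbx3 were all lowest in mouse 5, while Slc1a4, Slc13a3 and Rhbg were highest there. Over all tested genes, 21.6% were lowest and 19.2% highest in mouse 5, beside 5 and 3 of the 10. Slc1a2, Lgr5 and Axin2 were all highest in mouse 3, whereas Oat, Slc1a4, Slc13a3 and Rhbg were lowest in that mouse. In mouse 3, 18.9% of all tested genes were lowest and 22.9% highest, beside 4 and 3 of the 10. Slc1a2 and Lgr5 had the same order of all 5 mice, and Slc1a4 and Rhbg shared another. Several of these extremes were near ties. Slc1a2 was highest by 0.03 and lowest by 0.04, Rhbg highest by 0.02 and Tbx3 lowest by 0.06. Axin2 was highest by 0.08 and lowest by 0.04, and with a limma unadjusted p of 0.582 its order carries little weight. Wider gaps were those of Slc13a3 (0.61) and Slc1a4 (0.36) in mouse 5 and of Oat (0.47) in mouse 3. As a difference of levels, mouse 5 minus mouse 3, Slc1a4 gave 1.15, Slc13a3 1.01, Oat 0.50 and Rhbg 0.47. The same difference was -0.60 for Slc1a2, -0.55 for Lgr5, -0.30 for Glul, -0.28 for Axin2, -0.25 for Gulo and -0.06 for Tbx3, against a median of -0.02 over all 13339 tested genes. In size it exceeded 0.5 for 4 of the 10 genes and for 5.79% of all tested genes. This pair of mice was chosen after the values were seen, and the difference has no test with 1 array per mouse.

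**Figure D2:**
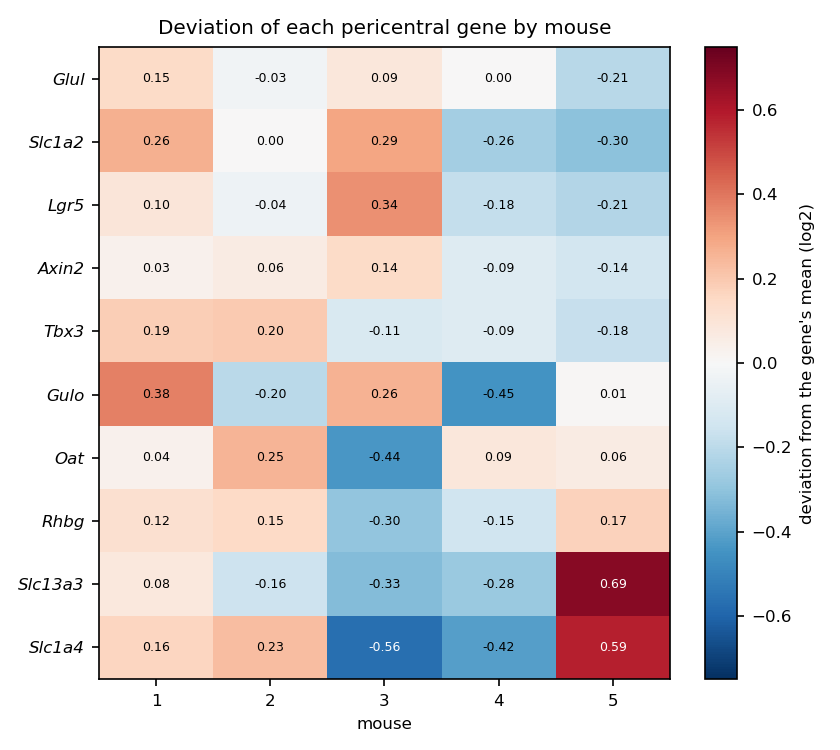
Deviation of each gene from its own mean over the 5 mice, in log2 units (colour and printed value), with genes as rows and mice as columns. In mouse 5 the values run from -0.30 for Slc1a2 to 0.69 for Slc13a3, and in mouse 3 from -0.56 for Slc1a4 to 0.34 for Lgr5.

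The spread between the mice was tested against the spread usual at the same level. For each probe set above the floor of the means, the variance over the 5 arrays was compared with the variance that limma's robust fit expects at that mean (upper-tail F test, Benjamini-Hochberg adjustment over 14589 probe sets). By this test 0 of the 10 pericentral genes passed an adjusted p of 0.05, where 52 of all tested probe sets (0.356%) passed. The test is weak: on simulated arrays it called no probe set with a moderately raised true variance, so a gene that misses it may still vary. At an unadjusted p under 0.05 in the same limma fit, 5 of the 10 passed (Slc1a4, Gulo, Slc13a3, Oat and Slc1a2), against a background of 6.34% of probe sets. The limma adjusted p was 0.219 for Slc1a4, 0.267 for Gulo, 0.286 for Slc13a3 and 0.335 for Oat, and 0.671 or more for the others. The second Glul probe set had a limma adjusted p of 0.496, against 0.987 for the brighter one. Its limma unadjusted p was 0.0167, against 0.138, so Glul would also pass the unadjusted threshold if read from that probe set.

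The ratio of observed to expected variance was 13.9 for Slc1a4, 12.0 for Gulo, 11.2 for Slc13a3, 9.97 for Oat and 5.67 for Slc1a2. It was 3.59 for Rhbg, 3.10 for Lgr5, 2.61 for Glul (7.17 on its second probe set), 2.30 for Tbx3 and 0.769 for Axin2. Thus 9 of the 10 genes had a ratio above 1, against 47.0% of all tested genes, and their median ratio was 4.63 against 0.931. The median SD of the 10 was 0.242, beside 0.117 over all tested genes, and the 10 were not drawn at random from them. Among lists described below, it was 0.205 for other pericentral genes, 0.193 for periportal genes and 0.251 for Kupffer cell and macrophage markers. It was 0.0544 for hepatocyte markers, 0.0996 for endothelial markers and 0.106 for stellate cell markers. For the 10 genes, leaving out mouse 3 gave a median SD of 0.170 and 3 of 10 at an unadjusted p under 0.05 in limma. Leaving out mouse 4 gave 0.247 and 5 of 10. The count over all probe sets changed with the mouse left out. Here limma called 0 without mouse 4 (864 at an unadjusted p under 0.05), 30 without mouse 3 and 34 without mouse 2. It called 69 without mouse 1 and 63 without mouse 5. Leaving out an array also changes the power of the test, which was not separated from the part of that mouse.

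**Figure D3:**
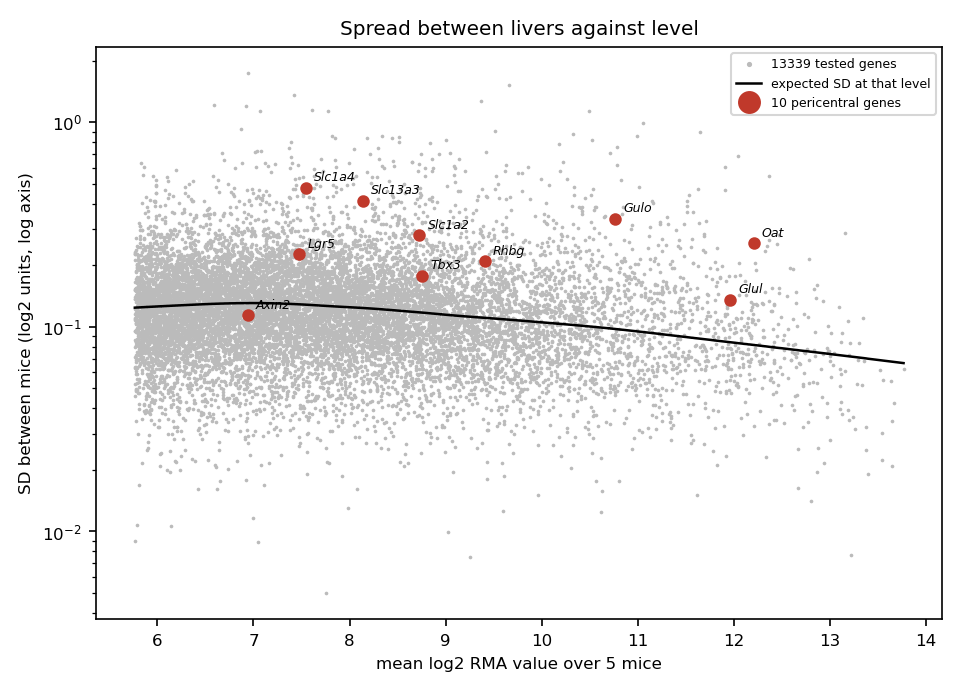
SD between the 5 mice (vertical log axis, log2 units) against the mean level (horizontal axis, log2 RMA value) for 13339 tested genes in grey and the 10 pericentral genes in red. The black line is the SD expected at each level, and Axin2 is the only red point below it.

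Each gene was centred on its mean, and the deviations were averaged over the 10 genes to see which livers were high or low as a whole. The mean deviation was 0.15 in mouse 1, 0.05 in mouse 2, -0.06 in mouse 3, -0.18 in mouse 4 and 0.05 in mouse 5. Over all tested genes it was 0.03 in mice 1 and 2, 0.00 in mice 3 and 5 and -0.06 in mouse 4. In mouse 1 all 10 genes lay above their own mean, where 61.9% of all tested genes did, and in mouse 4 only 2 of 10 did, where 27.1% of all tested genes did. The median over the 10 was -0.06 in mouse 5, opposite in sign to the mean. Without mouse 4 the mean deviation was 0.10, 0.00, -0.11 and 0.00 in mice 1, 2, 3 and 5, and without mouse 1 it was -0.02 in mouse 3. In mouse 1 other cell types' markers were high too. The 8 Kupffer cell and macrophage markers deviated by 0.38 there, with a mean level over the list between 8.43 and 9.02. Of these 8, 7 were highest in mouse 1, where 23.9% of all tested genes were. The 11 endothelial markers deviated by 0.11 (8 highest in mouse 1, list levels 8.58 to 8.76) and the 9 stellate cell markers by 0.14 (7 highest, 8.49 to 8.72), while the 7 hepatocyte markers deviated by 0.02 (12.90 to 12.95). Of the other cell type lists, the 3 tested skeletal muscle genes deviated by 0.54 in mouse 1 and the 2 erythroid genes by 0.45. The 2 lymphocyte genes deviated by 0.14 there, the 4 cholangiocyte genes by -0.04 and the adipocyte gene Plin1 by 0.06. Of these lists, Adipoq and Lep (adipocytes), Cd79a (B cells) and Myh4 and Mylpf (muscle) lay under the floor. Plin1, the lymphocyte genes Cd3e and Ptprc and the muscle genes Acta1, Ckm and Tnnt3 exceeded it in all 5 livers. Over the 9 cell type lists 0 of 47 tested genes passed (9 at an unadjusted p under 0.05, limma). The 2 tested genes of largest SD in each list (Plin1 alone for adipocytes) included Alas2 (0.55, erythroid), Adgre1 (0.41) and Timd4 (0.40) of macrophages, Acta1 (0.36) and Ckm (0.35) of muscle, and Epcam (0.29) and Sox9 (0.22) of bile duct cells. They also included Ptprc (0.22) and Cd3e (0.09) of lymphocytes, Slc4a1 (0.19) of red cells, Ecm1 and Reln (0.18 each) of stellate cells, Stab2 (0.15) and Tek (0.13) of endothelium, and Hnf4a (0.13) and Apoa1 (0.11) of hepatocytes. The part of these cells in the deviation of the pericentral genes was not tested.

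Other genes of the pericentral zone, mostly drug and steroid metabolism enzymes, are less tied to the innermost cell layer. Of 26 listed, 20 were measured here and tested, and 1 passed (11 at an unadjusted p under 0.05, limma): Cyp7a1, the rate-limiting enzyme of bile acid synthesis, at 9.46 in mouse 2 and 10.94 to 11.20 in the others (limma adjusted p = 0.0288). This call was lost when mouse 2 was left out (SD 0.12, limma adjusted p = 0.991) and when mouse 4 was (SD 0.79, limma adjusted p = 0.143), and under 4 of the 8 other alternative settings (limma adjusted p of 0.0572 to 0.225). The list deviated by 0.16, -0.13, -0.03, -0.01 and 0.01 in mice 1 to 5, with a median SD of 0.205. Cyp2c37, a cytochrome P450, was 10.56 in mouse 1 and 8.81 in mouse 3, an SD of 0.62 that did not pass (limma adjusted p = 0.0671). Cyp2e1, the ethanol-oxidising P450 often used to mark the zone, had a mean level of 13.36 ± 0.07 (SD, n = 5), near the top of the scale.

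Genes of the periportal zone, at the other end of the lobule, had mean deviations of 0.07, 0.11, -0.02, -0.01 and -0.15 in mice 1 to 5. Of 22 listed, 19 were measured and tested. Of these, 10 were lowest in mouse 5, where 21.6% of all tested genes were. In the test 1 passed (7 at an unadjusted p under 0.05, limma). That gene was Pigr, which encodes the receptor that carries immunoglobulin A into bile, at 9.67 in mouse 1 and 7.88 in mouse 5 (SD 0.71, limma adjusted p = 0.0476). It no longer passed without mouse 2, 3, 4 or 5 (limma adjusted p of 0.0767, 0.0629, 0.168 and 0.303) or under 7 of the 8 other alternative settings (0.0616 to 0.318), and without mouse 5 its SD was 0.33. Aldh1b1, a mitochondrial aldehyde dehydrogenase, had an SD of 0.36 (limma adjusted p = 0.321). Cps1, which encodes the first enzyme of the urea cycle, had a mean of 12.52 ± 0.07 (SD, n = 5).

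**Figure D4:**
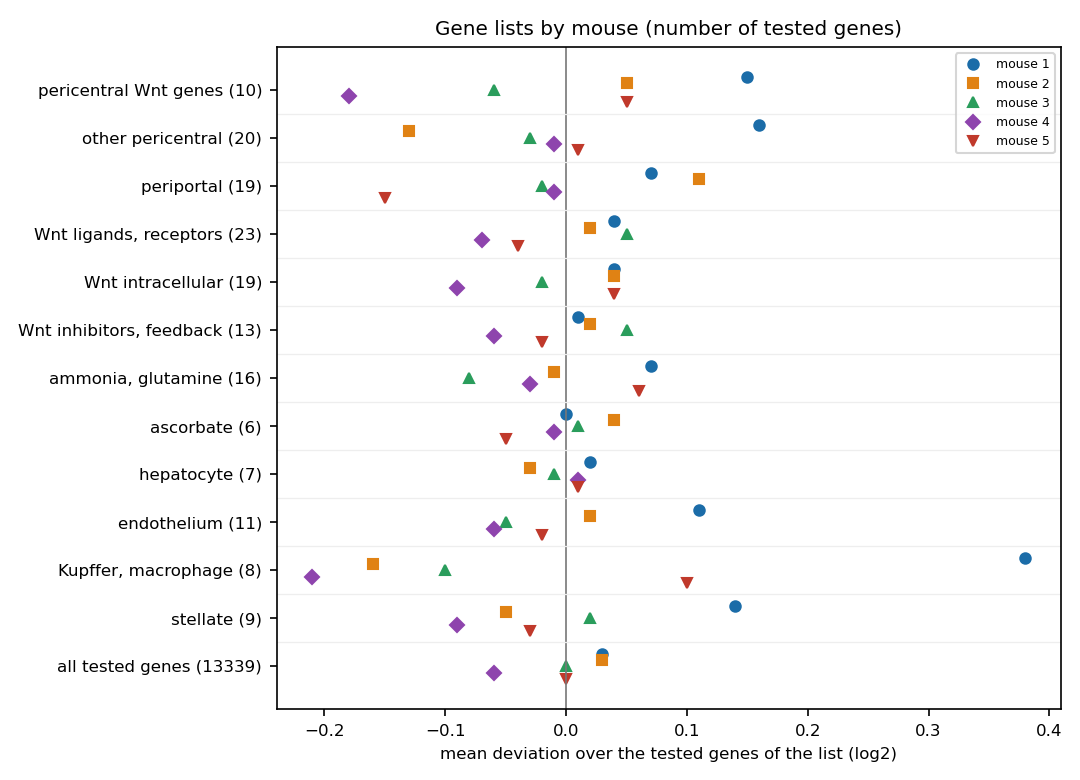
Mean deviation (horizontal axis, log2) of 12 gene lists and of all tested genes in mice 1 to 5, with the number of tested genes in brackets. The muscle, erythroid, lymphocyte, bile duct and adipocyte lists and the paralogs of Slc13a3 are not drawn. For the 10 pericentral Wnt genes mouse 1 lies at 0.15 and mouse 4 at -0.18, and the Kupffer cell and macrophage markers lie at 0.38 in mouse 1.

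Other genes of the Wnt pathway were measured from lists of ligands and receptors, intracellular components, and inhibitors and feedback genes. Of 27 ligand and receptor genes 23 were tested and 0 passed (1 at an unadjusted p under 0.05, limma), with a median SD of 0.0984. Wnt2, a ligand of the central vein endothelium, was 6.94, 6.91, 6.87, 6.67 and 7.04 in mice 1 to 5. Wnt9b, another such ligand, was 6.19, 6.29, 6.47, 6.51 and 6.41 (SD 0.13). These values lay not far above the array floors of 5.58 to 6.07, and the highest was in mouse 4, which had the brightest background. Rspo3, the R-spondin of the same cells, was 7.59, 7.51, 7.44, 7.47 and 7.58, a mean of 7.52 ± 0.07 (SD, n = 5). Wnt2 had an SD of 0.14 (limma unadjusted p = 0.433) and Rspo3 a limma unadjusted p of 0.892. With spreads this small their order over the mice carries little weight. The bearing of these ligands on the 10 genes was not tested. The widest of the tested genes were the receptor genes Fzd8 (SD 0.30, 7.30 in mouse 1 and 6.62 in mouse 5) and Fzd7 (SD 0.23), and Fzd5, Lrp5 and Lrp6 had SDs of 0.14, 0.13 and 0.07.

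Of 20 measured intracellular components 19 were tested and 0 passed (0 at an unadjusted p under 0.05, limma), with a median SD of 0.0924. Ctnnb1, which encodes beta-catenin, was 10.49, 10.48, 10.54, 10.39 and 10.42 in mice 1 to 5, a 1.11-fold span. Beta-catenin is controlled mainly by degradation of the protein, which arrays do not read. The coactivator genes Bcl9 and Bcl9l had SDs of 0.18 and 0.13, and Tcf7l2, the TCF gene best known from liver, had 8.51 ± 0.11 (SD, n = 5). Of 20 inhibitor and feedback genes 13 were tested and 0 passed (0 at an unadjusted p under 0.05, limma), with a median SD of 0.124. Ctnnbip1, an inhibitor of beta-catenin, had an SD of 0.18 and the secreted inhibitor gene Sfrp1 of 0.17. The feedback genes Znrf3, Rnf43, Nkd1 and Notum had SDs of 0.12, 0.13, 0.11 and 0.12.

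A further list held the partners of Glul, Oat and the transporters in ammonia, glutamine and glutamate handling. Of its 23 genes 19 were measured and 16 tested, and 0 passed (3 at an unadjusted p under 0.05, limma), with a median SD of 0.132. Asns, which encodes asparagine synthetase, was widest at 8.63, 8.86, 8.36, 8.94 and 9.51 in mice 1 to 5 (SD 0.43, limma adjusted p = 0.225). It was lowest in mouse 3 and highest in mouse 5, as Slc1a4 was. Slc1a1, a glutamate transporter gene of the Slc1 family, was 5.95, 6.35, 5.66, 5.94 and 6.51, with the same extreme mice, and lay under the array's floor of 5.79 in mouse 3 and of 6.07 in mouse 4. Prodh, of proline breakdown, ran from 9.20 in mouse 1 to 8.21 in mouse 5 (SD 0.40, limma adjusted p = 0.274). Slc38a3, the main glutamine carrier of hepatocytes, had 12.64 ± 0.07 (SD, n = 5) and Glud1, glutamate dehydrogenase, 11.82 ± 0.08 (SD, n = 5).

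For Gulo, 6 genes of vitamin C synthesis and transport were measured and tested, and 0 passed (2 at an unadjusted p under 0.05, limma). Slc23a1, a vitamin C transporter, was 10.23, 9.99, 10.30, 9.87 and 9.75 in mice 1 to 5 (SD 0.23), and Rgn, which encodes the lactonase of the step before Gulo, had an SD of 0.21 and was highest in mouse 3. Rgn also belongs to the list of other pericentral genes. For Slc13a3, 4 genes of its family were measured. Only Slc13a4 passed the floor (mean 6.46, SD 0.16, 0 passed and 0 at an unadjusted p under 0.05, limma), and Slc13a1, Slc13a2 and Slc13a5 lay under it.

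Genes with the most similar course over the 5 mice were looked up for Glul and for Slc1a4, the gene of the group with the largest SD. Likeness was measured as the root mean square difference of the centred log2 values over 5 mice, among 13338 other genes' probe sets, as a description with no test. With so few mice, close matches arise among so many genes whether or not they share anything. Nearest to Slc1a4 were Tbc1d7 (0.0960), Tubb2a (0.103), Nrg1 (0.110), Dusp6 (0.126) and Tubb6 (0.127), where the deviations of Slc1a4 itself had a root mean square of 0.428. Tubb2a, a beta-tubulin gene, was 10.36, 10.41, 9.49, 9.60 and 10.52 in mice 1 to 5. Dusp6, which encodes a phosphatase of the ERK kinases, was 8.77, 9.12, 8.36, 8.56 and 9.40. Within the 10 genes, Slc13a3 was nearest to Slc1a4 (0.221, rank 69), followed by Rhbg (0.256, rank 170), and Slc1a2 was farthest (0.569, rank 12891). Nearest to Glul were Cadm3 (0.0157), Ces4a (0.0177), Jak2 (0.0201), Hspb11 (0.0234) and Serpina1d (0.0241), against a root mean square of 0.122 for Glul itself. Within the 10, Axin2 was nearest to Glul (0.0870, rank 1030), Lgr5 followed (0.142, rank 5703), and Slc1a4 was farthest (0.511, rank 13234).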

How the data were processed

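The deposited values were log2 values, 1 per probe set and array, made by the authors with RMA in Affymetrix Expression Console 1.2, per the submitters' processing notes, which give no settings. No source used here names the genome build. RMA compresses differences near background. Of 35556 probe sets, 21789 had exactly 1 gene symbol in the platform annotation, 1621 several and 12146 none; 21698 of the 21789 matched RefSeq genes of GRCm38.p6 by gene ID. Tested were 14589 probe sets of 13339 genes with a mean above 5.76, the 95th percentile of the means of 1212 receptor probe sets. With limma 3.58.1 in R 4.3.3, a model with only a mean was fitted per probe set, and each variance (4 residual degrees of freedom) was set against the robust trended expectation (statmod 1.5.0, prior degrees of freedom 6.21). Tested on simulated data, it called no probe set with a moderately raised variance and most of those with a far larger rise. Tables were made with Python 3.11.15, numpy 2.4.6 and pandas 2.3.3. The number of arrays limits the precision, and the titles call the 5 mice biological replicates.

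The 10 genes, the 17 other lists and the tests were chosen with earlier results of these data known. Named were all 10 genes; from each other list the genes that passed and the 2 with the largest SD, with others named for their role after their values were seen; and the 5 nearest genes of Glul and of the widest of the 10. Alternatives were other normalizations, filters, variance fits and probe set choices, and leaving out each mouse.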

Additional observations from a re-analysis of the deposited data

Results flagged for a closer look

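By Dixon's criterion for 5 values, a mouse stands apart when the gap to the nearest value over the whole range is above 0.710. On the probe sets that stood for them, none of the 10 pericentral genes had such a mouse. The second Glul probe set, at 11.11 in mouse 5 and 11.53 to 11.71 in the others, lay close to that limit. Of 61 sets of 5 values examined, 5 had such a mouse. Chance flags about 1 in 20 of sets chosen without regard to their values. The 5 are genes named because they passed the variance test or had the largest SDs of their list. That choice favours a lone extreme value, so the rate of 1 in 20 is no yardstick for them. Cyp7a1 was 9.46 in mouse 2, against 10.94 to 11.20 in the others. Hnf4a, a transcription factor gene of hepatocyte identity, was 11.34 in mouse 3, against 11.61 to 11.67. In mouse 1 the macrophage genes Adgre1 (9.24, others 8.20 to 8.47) and Timd4 (7.86, others 6.89 to 7.06) and the muscle creatine kinase gene Ckm (7.29, others 6.44 to 6.63) stood above the rest.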

How the results depend on the processing

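The count of pericentral genes that passed the limma test was 0 under all 13 alternatives, with 3 to 5 of the 10 at an unadjusted p under 0.05; the lowest adjusted p was 0.0789, for Slc1a4 with each array centred on its median. The count over all probe sets, 52, was 142 with arrays centred on their medians, 29 with a floor on every array, 31 with probe sets averaged per gene, 24 without the trend, 18 without the robust step, 0 (1385 at an unadjusted p under 0.05) with probe sets of any annotation, and 0 to 69 without 1 mouse. The mean deviation of the 10 genes was above 0 in mouse 1 and below 0 in mice 3 and 4 under the 11 alternatives that give it. In mouse 2 it lay between 0.00 and 0.09, in mouse 3 between -0.11 (without mouse 4) and -0.01 (the median over the 10), with -0.02 without mouse 1, and in mouse 5 between -0.06 and 0.09. The second Glul probe set and the median over the 10 were added after the data were seen. No paired analysis was possible because there is 1 group.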
